A study of Mus musculus with 6 samples.

Results

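The genes described here carry out phase I of drug metabolism, the oxidation and hydrolysis of drugs, hormones and other small molecules, in hepatocytes that overexpress AEG-1. They were chosen by gene symbol alone: cytochrome P450 genes of families CYP1, CYP2 and CYP3 other than Cyp2c, the flavin monooxygenase genes (Fmo), the carboxylesterase genes (Ces), and named genes for electron supply (Por, Cyb5a, Cyb5b, Cyb5r3), epoxide hydrolysis (Ephx1, Ephx2) and aldehyde oxidation (Aox1). The rule found 47 genes on 64 probe sets, out of 12393 genes with a probe set of 1 symbol. By role these were 3 CYP1 genes, 25 CYP2 and CYP3 genes, 4 Fmo genes, 9 Ces genes, 3 electron supply genes and 3 genes for epoxide hydrolysis and aldehyde oxidation. Por, the reductase that feeds P450 enzymes, was not analysed here.

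Primary hepatocytes came from mice with hepatocyte-specific transgenic overexpression of AEG-1 (the Alb/AEG-1 line, called TG here) and from wild-type mice (WT). Both genotypes were of a mixed B6/CBA strain, untreated, and harvested 24 h after plating on collagen. Each had 3 arrays, labelled as biological replicates. Whether they were separate mice or cultures is not stated, and p-values describe only how these samples vary. Neither age nor sex of the mice is stated. The line is named after albumin, whose promoter is active in hepatocytes.

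Phase I enzymes add or expose a reactive group, which conjugating enzymes then use. P450 enzymes sit in the endoplasmic reticulum and take electrons from NADPH through P450 reductase, with cytochrome b5 as a further donor for some reactions, while carboxylesterases cleave esters and amides. Their genes respond to the receptors AHR, CAR and PXR, and many are known to lose expression when hepatocytes are cultured. Each array here was taken at a single time after plating, so that loss was not measured.

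Array medians ran from 5.61 to 5.64 log2 units, and the median over all arrays, 5.63, serves below as the mark under which signal is near background. For Mtdh, which encodes AEG-1, the brightest probe set averaged 10.64 ± 0.21 log2 units in TG and 8.72 ± 0.07 in WT (SD, n = 3 each), while the other 5 Mtdh probe sets differed by -0.27 to 0.24. By limma at an adjusted p of 0.05, 6.83% of all genes were higher in TG and 9.05% lower. Those are the shares to set beside the counts of markers that follow. Of 22 measured hepatocyte identity genes none lay under the array median in both genotypes, 1 was higher and 2 were lower. Among markers of other cells, 4 of 18 macrophage genes were higher and 2 lower, and 3 of 16 sinusoidal endothelial genes were higher. Of 14 stellate genes 1 was higher, and of 9 cholangiocyte and of 13 T, NK and B cell genes 1 each was higher and 1 lower. Of 6 erythroid genes 1 was higher and 2 were lower, and of 8 neutrophil genes, all under the array median, 0 passed by limma and 0 had an unadjusted p under 0.05. The summed level of the macrophage list, as log2 of the sum, ran from 11.02 to 11.07 in TG and from 10.97 to 11.10 in WT. The endothelial sum ran from 10.31 to 10.40 in TG and from 10.03 to 10.21 in WT, without overlap. The cholangiocyte sum ran from 10.43 to 10.49 in TG and from 10.54 to 10.66 in WT, and the T, NK and B cell sum from 9.48 to 9.58 in TG and from 9.68 to 9.84 in WT, both without overlap. These sums lean on single genes. The brightest macrophage gene was Cd14, at 8.768 in TG and 9.215 in WT, while the median difference of that list was 0.14. The brightest cholangiocyte gene was Anxa5, at 9.97 in TG and 10.22 in WT, and its call was lost under several alternatives. In the T, NK and B cell list Ighm averaged 6.79 in TG and 8.59 in WT. Without probe sets that match several transcripts Ighm differed by 0.14. Under the array median in both genotypes lay 5 macrophage, 6 endothelial, 8 stellate, 6 cholangiocyte, 9 T, NK and B cell and 2 erythroid genes. Single markers moved in opposite directions: Epcam, of bile duct cells, was higher in TG by 1.52 log2 units and the chemokine gene Ccl5 by 0.99, while the immunoglobulin gene Ighm fell by 1.80. The carbonic anhydrase gene Car1 was higher by 0.68, and Car2 fell by 0.66. The part of these other cells in the results below was not tested, and fewer cells of a type cannot be told apart from less RNA per cell.

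Most phase I genes did not pass the test, and those that did moved by small amounts in both directions. By limma with Benjamini-Hochberg adjustment over all genes, 12 of the 47 genes passed an adjusted p of 0.05 (25.5%, against 15.9% of all genes tested). Of these, 4 were higher in TG (Cyp3a13, Cyp2j9, Cyp2d13 and Cyp2f2), where 6.83% of all genes were higher. The other 8 were lower in TG (Ces2e, Fmo1, Cyp2j6, Cyp2b10, Fmo5, Ces1g, Cyb5b and Ces2g), where 9.05% of all genes were lower. The median difference over the 47 genes was 0.01 log2 units, the same as over all genes, and differences ran from -0.78 to 0.45. None of the 47 changed by 1 log2 unit or more, as 0.75% of all genes did, and 2 (Ces2e and Fmo1) changed by at least 0.5, as 4.08% of all genes did. The TG and WT arrays did not overlap for 26 of the 47 genes, against 4272 of all 12393 genes (34.5%). Among genes at or above the array median these counts were 24 of 34 and 3334 of 7010.

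Calls were found among the brighter genes. Among the 34 phase I genes whose mean was at or above the array median, 12 passed (35.3%), against 23.6% of all such genes. The 4 higher compare with 9.29% of all such genes and the 8 lower with 14.3%. Of the 13 below it, 0 passed by limma and 2 had an unadjusted p under 0.05 (Cyp2b9 and Cyp2s1). The 95% intervals of the differences in the plot of all 47 genes give the range of change that remains possible for each.

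**Figure D1:**
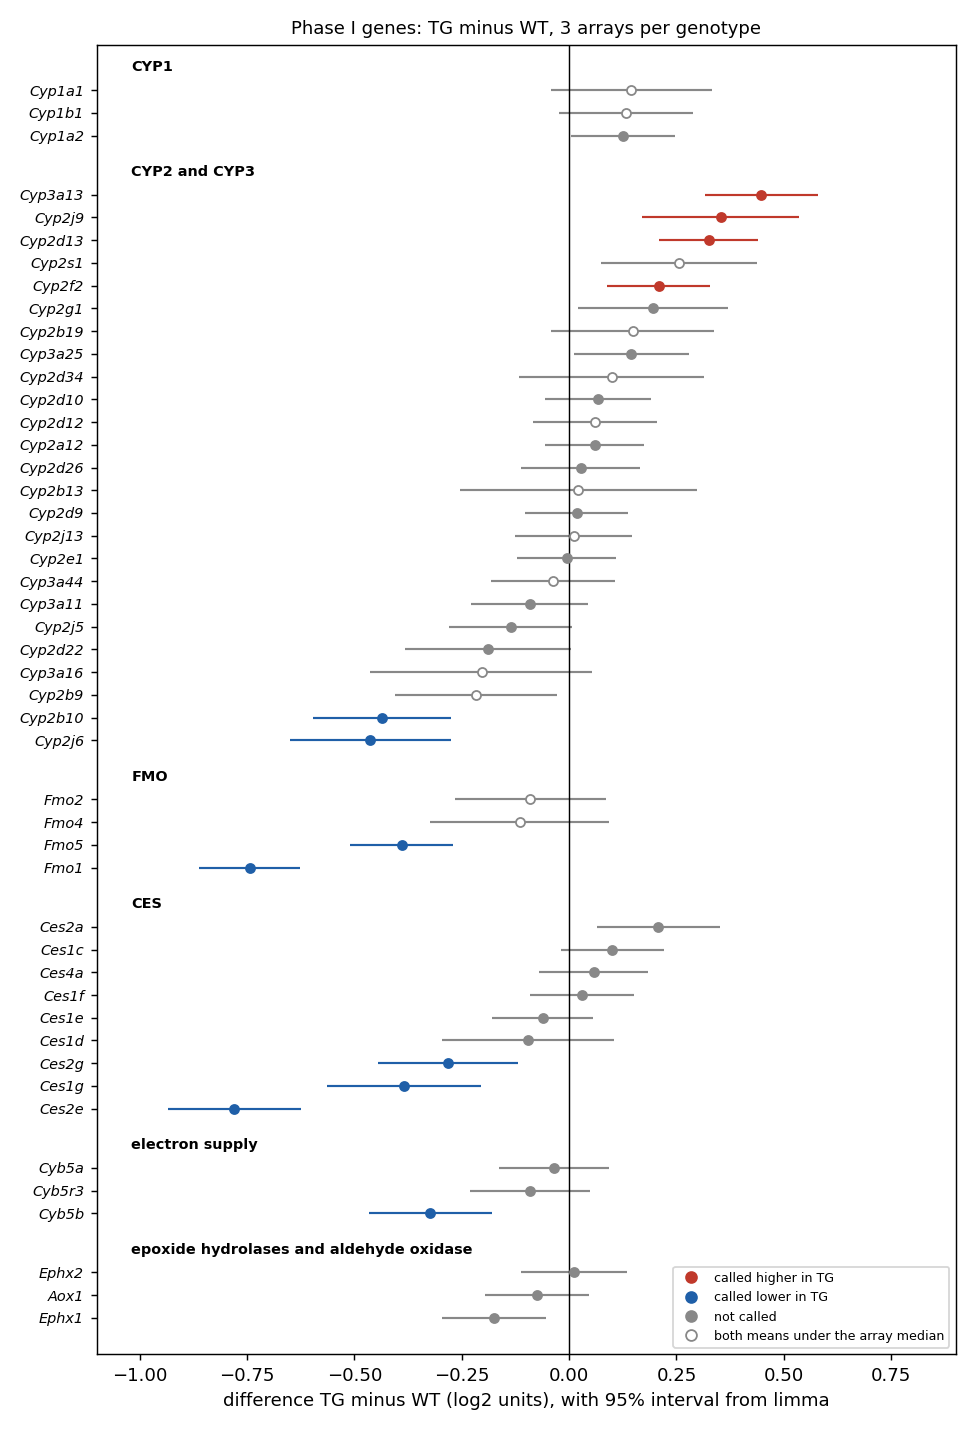
Difference between TG and WT in log2 units for each of the 47 phase I genes, grouped by role, with the 95% interval from limma. Red marks the 4 genes higher in TG, blue the 8 lower, grey the rest, and open circles the genes whose means lay under the array median of 5.63 in both genotypes. Ces2e and Fmo1 lie farthest from 0, at -0.78 and -0.74.

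Among the CYP1 genes, the classical targets of the aryl hydrocarbon receptor, 0 of 3 passed by limma, and 1 (Cyp1a2) had an unadjusted p under 0.05. Cyp1a2, which oxidises caffeine and aromatic amines, measured 12.26, 12.29 and 12.22 log2 units in TG, against 12.15, 12.14 and 12.11 in WT. The arrays did not overlap, but the difference of 0.13 (SE 0.052) had an adjusted p of 0.155. With a variance trend, 1 of the alternatives listed below, Cyp1a2 passed (adjusted p = 0.0120). Cyp1a1, the most inducible of the family, lay near background at 4.37, 4.52 and 4.23 in TG, against 4.27, 4.16 and 4.25 in WT. Cyp1b1 was near background too, with a difference of 0.13 and an adjusted p of 0.247.

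The receptor itself, Ahr, differed little and its call was not stable. Ahr measured 9.31, 9.30 and 9.26 in TG and 9.08, 9.13 and 9.11 in WT, a difference of 0.18 with an adjusted p of 0.0472. The call was lost without any of the 6 arrays, with adjusted p from 0.0851 to 0.146, and as the mean of its probe sets the difference was 0.12 (adjusted p = 0.135). Of 9 measured AHR targets outside the phase I genes, 3 were higher and 1 was lower, against 6.83% and 9.05% of all genes. The one that fell was Cd36, a fatty acid transporter, at 6.64 in TG and 9.16 in WT. Of those that did not pass, Nqo1 differed by -0.33 (adjusted p = 0.0909), Nfe2l2 by 0.17 and Fgf21 by 0.15, each without overlap. Under the array median in both genotypes lay 3 of the 9, Ahrr, Aldh3a1 and Fgf21. Tiparp, a feedback inhibitor of AHR, differed by 0.24 (adjusted p = 0.0191), and that call was lost without TG replicate 1 (adjusted p = 0.0673), TG replicate 3 (0.0673) or WT replicate 3 (0.0555).

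CYP2 and CYP3 hold most of the drug-metabolising P450 enzymes, and 6 of the 25 measured passed, 4 higher and 2 lower. That is 24.0%, against 15.9% of all genes. The 6 lay at or above the array median, where 23.6% of all genes passed. The 24.0% also counts genes under that median, so it cannot be set beside the 23.6%. None of the 6 reached 1.5-fold. Their per-array values are given below by subfamily.

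Cyp2b10, the classical target of the receptor CAR in mouse liver, was lower in TG. Its brightest probe set measured 7.66, 7.49 and 7.53 in TG, against 8.00, 7.91 and 8.08 in WT. Every TG array lay below every WT array, and the level was 1.35-fold lower (difference -0.44, SE 0.070, adjusted p = 0.00482). A second probe set gave -0.44 as well (adjusted p = 0.00190), while the third gave -0.20 (adjusted p = 0.126). The first 2 carry an identifier that marks a match to several transcripts, and without such probe sets the gene did not pass (adjusted p = 0.118). The other measured Cyp2b genes were near background. Cyp2b13, Cyp2b19 and Cyp2b9, of which Cyp2b9 and Cyp2b13 are typical of female mouse liver, differed by 0.02, 0.15 and -0.22. Cyp2b9 passed without WT replicate 1 (-0.29, adjusted p = 0.0463).

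The genes of CAR and its partner were lower too. Nr1i3, which encodes CAR, measured 8.37, 8.43 and 8.31 in TG, against 8.77, 8.75 and 8.68 in WT. That was a difference of -0.36 (SE 0.059, adjusted p = 0.00484), with no overlap of the arrays. Nr1i2, which encodes PXR, measured 6.36, 6.40 and 6.35 in TG, against 6.95, 6.67 and 6.71 in WT (difference -0.41, adjusted p = 0.0115). Rxra, the shared partner of both receptors, measured 8.39, 8.43 and 8.33 in TG and 8.78, 8.85 and 8.67 in WT (difference -0.38, adjusted p = 0.00610). As the mean of its probe sets Rxra gave -0.16 and did not pass (adjusted p = 0.0658).

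Cyp3a genes, whose products oxidise a wide range of drugs and steroids, held 1 call among 5 measured (20%, against 15.9% of all genes). Cyp3a13 measured 10.38, 10.41 and 10.48 in TG, against 9.93, 9.98 and 10.01 in WT. Every TG array was above every WT array, and the level was 1.36-fold higher (difference 0.45, SE 0.057, adjusted p = 0.00159), the largest increase among the 47 genes. Cyp3a11, the main PXR-responsive member in mouse liver, did not pass at 14.19, 14.08 and 14.23 in TG and 14.23, 14.27 and 14.27 in WT. Its difference was -0.09, with a 95% interval from -0.23 to 0.05. Such signal is close to the highest value on any array, 14.99, where arrays compress differences. Cyp3a25 differed by 0.15 (adjusted p = 0.140), and Cyp3a16 and Cyp3a44, both near background, by -0.20 and -0.04. In the RefSeq order of the family on chromosome 5, Cyp3a13 lies at the end, with the other 4 measured genes after it.

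The Cyp2j genes, epoxygenases that act on arachidonic acid, held neighbours that were called in opposite directions. In the RefSeq order of the Cyp2j genes on chromosome 4 (assembly GRCm38.p6), Cyp2j6, Cyp2j9 and Cyp2j5 follow one another. Cyp2j6 measured 7.96, 7.98 and 7.91 in TG, against 8.29, 8.37 and 8.59 in WT. The level in TG was 1.38-fold lower (difference -0.46, SE 0.081, adjusted p = 0.00733). Cyp2j9 measured 6.23, 6.18 and 6.28 in TG, against 5.87, 5.74 and 6.02 in WT. The level in TG was 1.28-fold higher (difference 0.35, SE 0.079, adjusted p = 0.0207). Neither gene had overlapping TG and WT arrays. The Cyp2j9 call was lost without TG replicate 1 (adjusted p = 0.0629), TG replicate 3 (0.0715), WT replicate 1 (0.0517) or WT replicate 2 (0.0546), with differences from 0.28 to 0.35.

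Cyp2j5, the third neighbour, gave unlike answers on its 2 probe sets. The brighter measured 12.06, 12.21 and 12.18 in TG, against 12.23, 12.33 and 12.30 in WT, a difference of -0.14 that did not pass (adjusted p = 0.193). The dimmer gave -0.40 and passed when all probe sets were tested (adjusted p = 0.0103). The mean of both was -0.27 (adjusted p = 0.00821). Cyp2j13, at the other end of that order, was near background and differed by 0.01.

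The promoters of the neighbours that moved oppositely are shown to let their sequences be compared. Each runs from 250 bases before to 50 after the gene's start, 5′ to 3′ on the gene's strand, from RefSeq on GRCm38.p6. Cyp2j6 lies at chr4:96553602-96553901 and Cyp2j9 at chr4:96591436-96591735, both on the minus strand. Capitals mark the longest run of letters that both share, 10 bases, which 10 of 32851 RefSeq promoters hold on that strand. The promoter of Cyp2j5, whose brighter probe set did not pass, shares 9 of these bases with Cyp2j6 (TGGGTAAAA). With Cyp2j9 it shares a run of 11 bases (ACTGGGTAAAA).
Cyp2j6: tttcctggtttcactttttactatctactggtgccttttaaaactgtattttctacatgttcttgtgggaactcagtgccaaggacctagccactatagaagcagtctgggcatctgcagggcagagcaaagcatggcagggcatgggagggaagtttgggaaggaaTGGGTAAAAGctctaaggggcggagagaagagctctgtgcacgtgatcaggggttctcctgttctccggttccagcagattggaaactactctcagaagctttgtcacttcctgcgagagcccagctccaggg
Cyp2j9: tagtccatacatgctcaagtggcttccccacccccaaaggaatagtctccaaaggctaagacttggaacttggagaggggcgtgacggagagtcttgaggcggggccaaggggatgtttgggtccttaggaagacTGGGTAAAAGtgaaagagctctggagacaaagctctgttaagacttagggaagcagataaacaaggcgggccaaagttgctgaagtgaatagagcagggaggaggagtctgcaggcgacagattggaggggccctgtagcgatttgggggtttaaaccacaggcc

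Among the Cyp2d genes, relatives of the human enzyme that oxidises many psychoactive drugs, 1 of 7 passed (14.3%, against 15.9% of all genes). Cyp2d13, which the RefSeq table lists as a transcribed pseudogene, measured 9.44, 9.41 and 9.42 in TG, against 9.10, 9.12 and 9.08 in WT. It was 1.25-fold higher in TG (difference 0.33, SE 0.050, adjusted p = 0.00419), and its other probe set gave 0.59 (adjusted p = 0.000701). Because the Cyp2d genes are close in sequence, probe sets may also bind transcripts of a relative, which was not tested. The bright relatives Cyp2d10, Cyp2d9 and Cyp2d26 differed by 0.07, 0.02 and 0.03, none of which passed, and Cyp2d22 differed by -0.19 (adjusted p = 0.183). Cyp2d12 and Cyp2d34 were near background.

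The other CYP2 genes held 1 call. Cyp2f2, which bioactivates naphthalene, measured 13.64, 13.66 and 13.65 in TG, against 13.43, 13.48 and 13.41 in WT. The arrays did not overlap, and the level was 1.16-fold higher in TG (difference 0.21, SE 0.052, adjusted p = 0.0313). The call was lost without TG replicate 1 (adjusted p = 0.0934), TG replicate 2 (0.0889), TG replicate 3 (0.0811), WT replicate 1 (0.0656) or WT replicate 3 (0.100). It was lost after a further quantile normalization as well (0.17, adjusted p = 0.0714). Cyp2e1, the ethanol-inducible P450 of pericentral hepatocytes, measured 14.08, 14.08 and 14.06 in TG and 14.07, 14.09 and 14.09 in WT. Its difference was -0.01, with a 95% interval from -0.12 to 0.11, at a signal near the top of the range. Cyp2a12, a steroid hydroxylase, differed by 0.06 and Cyp2g1 by 0.20, neither past the threshold. Cyp2s1, near background, differed by 0.26 (adjusted p = 0.0655) and passed without WT replicate 1 (0.32, adjusted p = 0.0395).

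Flavin monooxygenases oxidise nitrogen and sulphur atoms of drugs and dietary amines, and 2 of the 4 measured genes were lower in TG. Both lay above the array median, where 14.3% of all genes were lower, against 9.05% of all genes at any level. Fmo1 measured 10.01, 10.04 and 9.98 in TG, against 10.75, 10.76 and 10.75 in WT. That was 1.67-fold lower (difference -0.74, SE 0.051, adjusted p = 7.26e-05), the smallest adjusted p among the 47 genes. Fmo5, which also acts as a Baeyer-Villiger oxidase, measured 10.77, 10.78 and 10.71 in TG, against 11.14, 11.14 and 11.16 in WT. It was 1.31-fold lower (difference -0.39, SE 0.052, adjusted p = 0.00204), and its second probe set gave -0.47 (adjusted p = 0.00538). Neither gene's arrays overlapped between genotypes. Fmo2 and Fmo4, near background, differed by -0.09 and -0.12, and neither passed. In the RefSeq order of the family Fmo4, Fmo1 and Fmo2 follow one another on chromosome 1, while Fmo5 lies on chromosome 3.

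**Figure D2:**
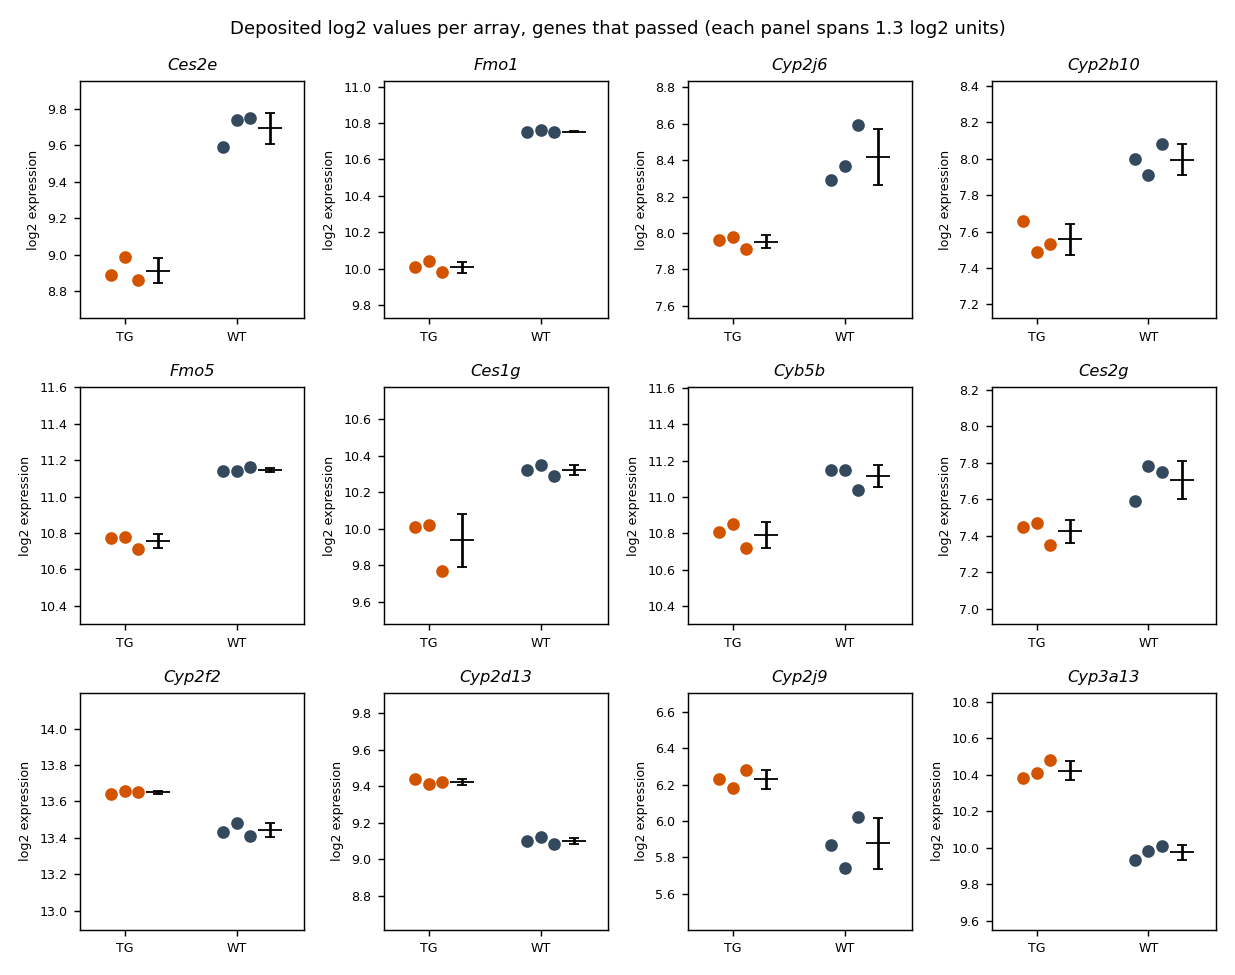
Deposited log2 values of the 12 genes that passed, 1 point per array, with the 3 TG arrays left of the 3 WT arrays in each panel and the mean ± SD beside them. Every panel spans the same height, and in no panel do the TG and WT arrays overlap. The TG arrays of Fmo1 lie between 9.98 and 10.04 and the WT arrays between 10.75 and 10.76.

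Carboxylesterases cleave ester drugs and also act on triglycerides and cholesteryl esters, and 3 of the 9 measured were lower in TG. Over all genes 9.05% were lower, and 14.3% of those at or above the array median. Ces2e had the largest difference of all 47 genes. It measured 8.89, 8.99 and 8.86 in TG, against 9.59, 9.74 and 9.75 in WT. The arrays did not overlap, and the level was 1.72-fold lower (difference -0.78, SE 0.067, adjusted p = 0.000243). Ces2g measured 7.45, 7.47 and 7.35 in TG, against 7.59, 7.78 and 7.75 in WT. It was 1.22-fold lower (difference -0.28, SE 0.070, adjusted p = 0.0317). The Ces2g call was lost without TG replicate 1 (adjusted p = 0.0757), TG replicate 2 (0.0601), TG replicate 3 (0.101), WT replicate 2 (0.0986) or WT replicate 3 (0.102).

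Ces2a, the third measured Ces2 gene, had the other sign. It measured 11.93, 12 and 11.85 in TG, against 11.78, 11.70 and 11.68 in WT. The arrays did not overlap, and the difference of 0.21 (SE 0.062) had an adjusted p of 0.0587, just outside the threshold. The Ces2 genes form a row on chromosome 8, with Ces2a at place 1 of 8 RefSeq entries, Ces2e at place 5 and Ces2g at place 7.

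The promoters of Ces2e and Ces2g, the Ces2 genes that fell, are shown in the same window and from the same RefSeq table. Ces2e lies at chr8:104926010-104926309 and Ces2g at chr8:104961468-104961767, both on the plus strand. Capitals mark their longest shared run of 13 bases, which starts at position -34 from the Ces2e start and -24 from the Ces2g start. That run occurs in 3 of 32851 RefSeq promoters.
Ces2e: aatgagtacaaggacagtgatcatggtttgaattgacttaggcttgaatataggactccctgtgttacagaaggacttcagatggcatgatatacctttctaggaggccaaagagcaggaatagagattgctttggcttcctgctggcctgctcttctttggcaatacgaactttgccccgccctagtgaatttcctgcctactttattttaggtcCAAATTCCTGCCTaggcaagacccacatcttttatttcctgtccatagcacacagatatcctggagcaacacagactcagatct
Ces2g: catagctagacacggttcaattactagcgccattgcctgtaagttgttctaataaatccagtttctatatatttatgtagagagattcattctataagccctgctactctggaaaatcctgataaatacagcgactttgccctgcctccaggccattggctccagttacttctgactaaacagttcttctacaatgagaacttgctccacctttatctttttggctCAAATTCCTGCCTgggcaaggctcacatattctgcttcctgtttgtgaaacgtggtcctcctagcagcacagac

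The promoter of Ces2a, which did not pass, shares 11 of those bases with Ces2g (CAAATTCCTGC) and has a longer run of 17 bases in common with Ces2e (CAGAAGGACTTCAGATG).

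Of the Ces1 genes 1 of 5 passed (20%, against 15.9% of all genes and 23.6% of those at or above the array median). Ces1g, a lipid-regulating esterase of mouse liver, measured 10.01, 10.02 and 9.77 in TG, against 10.32, 10.35 and 10.29 in WT, with no overlap. It was 1.31-fold lower (difference -0.38, SE 0.078, adjusted p = 0.0135), and the call was lost without WT replicate 2 (-0.37, adjusted p = 0.0513). Ces1c, the plasma esterase of mice, differed by 0.10, Ces1d, a triglyceride hydrolase, by -0.10, Ces1e by -0.06 and Ces1f by 0.03. None of these passed, and the 3 probe sets of Ces1d gave -0.10, -0.08 and -0.14. Ces4a differed by 0.06, at 6.01 in TG and 5.95 in WT. In the RefSeq order of the Ces1 genes on chromosome 8, the gene that fell follows the 4 measured genes that did not pass.

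Of the 3 measured electron supply genes 1, Cyb5b, was lower in TG, against 9.05% of all genes. Cyb5b encodes the cytochrome b5 of the outer mitochondrial membrane, which supplies electrons to the amidoxime reducing system. It measured 10.81, 10.85 and 10.72 in TG, against 11.15, 11.15 and 11.04 in WT. It was 1.25-fold lower (difference -0.32, SE 0.062, adjusted p = 0.0110), and its other 2 probe sets passed too, at -0.38 and -0.21. Cyb5a, the cytochrome b5 of the endoplasmic reticulum that serves P450 enzymes, measured 13.63, 13.57 and 13.66 in TG and 13.64, 13.63 and 13.71 in WT. The Cyb5a groups overlapped, and the difference was -0.04 with a 95% interval from -0.16 to 0.09. Cyb5r3, the reductase of cytochrome b5, measured 11.47, 11.50 and 11.40 in TG and 11.57, 11.60 and 11.47 in WT (difference -0.09, adjusted p = 0.374). Of 5 measured genes on a list of other electron carriers 1 was higher and 1 lower, against 6.83% and 9.05% of all genes. Fdx1, the ferredoxin of mitochondrial P450 enzymes, was higher, with a difference of 0.31 (adjusted p = 0.00566). Pgrmc2 was lower, with a difference of -0.265 (adjusted p = 0.0129).

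Of the epoxide hydrolase and aldehyde oxidase genes 0 of 3 passed by limma, and 1 (Ephx1) had an unadjusted p under 0.05. Ephx1, the microsomal epoxide hydrolase, measured 12.09, 12.06 and 12.02 in TG, against 12.24, 12.25 and 12.21 in WT. The arrays did not overlap, and the difference of -0.17 (SE 0.052) had an adjusted p of 0.0582. Ephx2, the soluble epoxide hydrolase that acts on fatty acid epoxides, measured 12.55, 12.61 and 12.57 in TG and 12.52, 12.59 and 12.58 in WT. Its difference was 0.01, with a 95% interval from -0.11 to 0.13. Aox1 measured 10.03, 10.03 and 9.98 in TG and 10.07, 10.12 and 10.09 in WT, a difference of -0.07 (adjusted p = 0.401).

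Agreement between probe sets could be checked for the 10 genes that have several. Cyb5b, Cyp2d13 and Fmo5 passed in the same direction on each of their probe sets, Cyp2b10 on 2 of 3, and Cyp2j5 on the dimmer of 2. None of the probe sets of Ces1d, Cyb5r3, Cyp1b1, Cyp2d22 or Fmo2 passed. The other 37 genes, 8 of the 12 that passed among them, rest on a single probe set.

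**Figure D3:**
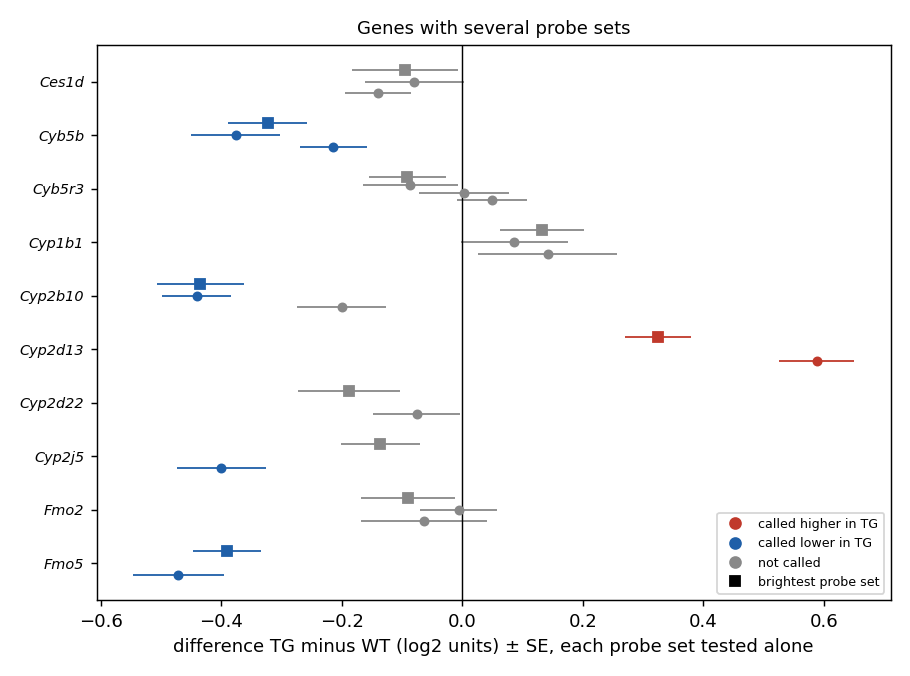
Difference between TG and WT in log2 units ± SE for every probe set of the 10 phase I genes with more than 1, each tested among all probe sets with 1 symbol. Squares are the brightest probe set of a gene, red and blue mark those that passed as higher and lower in TG, and grey those that did not. The Cyp2d13 probe sets lie at 0.33 and 0.59, and those of Cyp2j5 at -0.14 and -0.40.

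Promoter letters were described for the 36 phase I genes with a RefSeq promoter, on both strands and with no test. These genes have 39 promoters, and a gene was counted if any of its promoters held the motif. The shares beside the counts are of single promoters. The nuclear receptor half-site AGGTCA was present in 12 of the 36, against 16.3% of all 32851 promoters, and its variant AGTTCA in 1, against 14.0%. The AHR core GCGTG was in 6, against 32.4%, the FOXA motif TGTTTAC in 5, against 3.65%, the C/EBP motif TTGCNNAA in 11, against 10.8%, and the D-box TTATGTAA in 3, against 0.938%. Of the 4 promoters shown, Ces2e held the C/EBP motif as TTTGGCAA from -93 to -86. The Cyp2j9 promoter held it as TTGCTGAA from -39 to -32 and the AHR core from -171 to -167, while those of Cyp2j6 and Ces2g held none of the 6. No 2 of these matches overlap.

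Genes around the phase I enzymes were described from lists, whose entries share some genes. Beside the counts of these lists stand 6.83% of all genes higher and 9.05% lower. Of 27 measured xenobiotic receptors and liver transcription factors 10 were lower and 4 higher, with a median difference of -0.07. Foxa1, a pioneer factor of liver genes, fell by 1.05 and Dbp, a clock-driven factor that binds P450 genes, fell by 0.82. The other Foxa genes, named after their values were seen, went the other way. Foxa3 was higher by 0.52 (adjusted p = 0.000984), and Foxa2 differed by 0.22 without passing (adjusted p = 0.0853). Ppara, the fatty acid receptor, fell by 0.77. Bcl6, a repressor of female-typical liver genes, rose by 0.84.

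Haem is the cofactor of every P450 enzyme, and its pathway list held 4 lower and 2 higher of 18 measured genes. Alas1, the rate-limiting enzyme of haem synthesis, measured 11.02, 11.16 and 10.91 in TG, against 11.77, 11.79 and 11.73 in WT. It was 1.66-fold lower with no overlap (difference -0.73, SE 0.072, adjusted p = 0.000461). Hmox1, which breaks haem down, measured 11.22, 11.16 and 11.04 in TG and 10.80, 10.90 and 10.88 in WT (difference 0.28, adjusted p = 0.0259). The Hmox1 call was lost without TG replicate 1 (adjusted p = 0.0919) or 2 (0.0782) and without WT replicate 1 (0.0682), 2 (0.0552) or 3 (0.0640).

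Other drug hydrolases and reductases gave 8 lower and 0 higher by limma of 25 measured genes, with a median of -0.10. Of positive differences 1 had an unadjusted p under 0.05, that of the carbonyl reductase gene Cbr3 near background (0.41, adjusted p = 0.0989), named after its values were seen. Xdh, xanthine oxidoreductase, was lower by 0.34 on the log2 scale, and the aldo-keto reductase genes Akr1c20 and Akr1c14 fell by 0.43 and 0.40.

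Many P450 genes are zonated or differ between the sexes, so zonated and sex-biased genes outside the 47, some of them P450 genes of other families, were set beside them. Of 19 measured pericentral genes 12 were lower, 1 was higher and 6 did not pass (median -0.33). Cyp2e1, a pericentral P450 gene among the 47, differed by -0.01 at a signal near the top of the range and did not pass. Cyp7a1, the P450 that sets the rate of bile acid synthesis, averaged 7.31 in TG and 8.36 in WT (difference -1.05, adjusted p = 6.31e-05). Gstm2, a glutathione transferase, averaged 8.66 in TG and 9.47 in WT. Of 15 measured male-biased genes 6 were higher and 0 lower by limma, with 1 lower at an unadjusted p under 0.05 (Cyp4a12a, -0.15, named after its values were seen), and the median was 0.20. Hsd3b5, a steroid dehydrogenase, was among the higher, with a difference of 0.47. The male-biased Cyp2d9 differed by 0.02 and did not pass. Of 12 measured female-biased genes 4 were lower and 1, the fatty acid binding protein gene Fabp5, was higher (median -0.10). Under the array median in both genotypes lay 6 of the female-biased, 3 of the pericentral and 1 of the male-biased genes. The difference between any of these lists and the phase I genes was not tested.

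**Figure D4:**
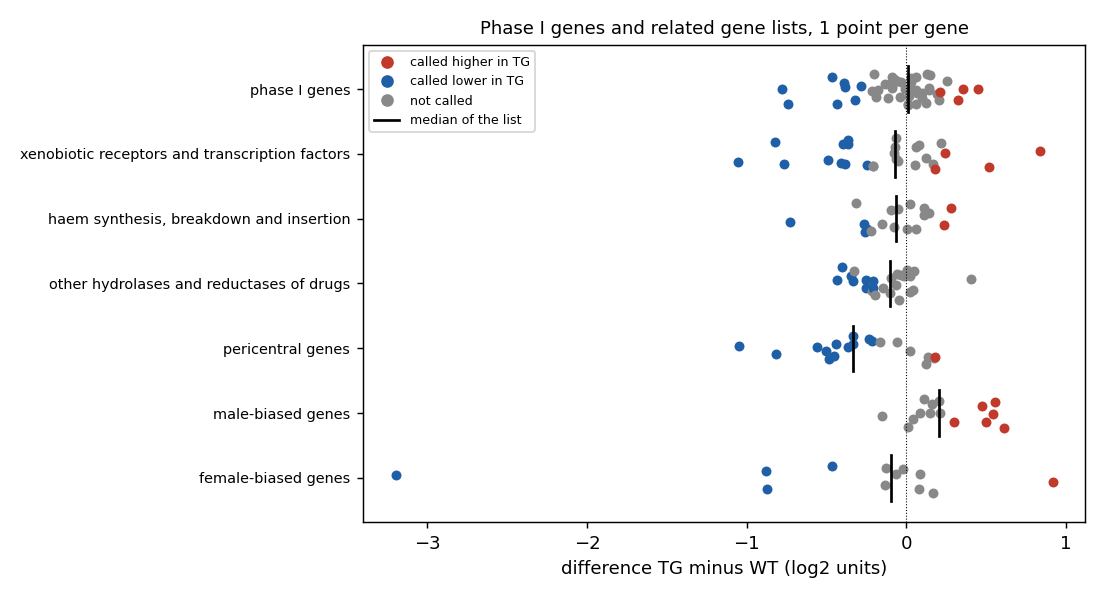
Difference between TG and WT in log2 units for the 47 phase I genes and for 6 related lists, 1 point per gene, placed at random heights within a row, with a black bar at each median. Red and blue mark genes that passed as higher and lower in TG. The medians are 0.01 for the phase I genes, -0.33 for pericentral genes and 0.20 for male-biased genes.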

How the data were processed

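Total RNA of 6 hepatocyte samples, 3 TG and 3 WT, was labelled as biotinylated cRNA and hybridised to Affymetrix arrays, per the labels' protocols. The submitters' processing notes name RMA and Affymetrix Expression Console, and what the authors deposited is 1 log2 value for each probe set and array. RMA equalises distributions between arrays, so values show changes relative to other genes, and dim and very bright probe sets understate differences. Precision is limited by the number of arrays.

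Of 22690 probe sets, 20380 carried 1 gene symbol, 691 several and 1555 none, beside 64 controls. The brightest probe set over the 6 arrays represented a gene. Probe sets with several symbols stayed out, 3 of which hold a symbol of these families. TG minus WT was tested with limma 3.58.1 (lmFit and eBayes, R 4.3.3), two-sided, adjusted by Benjamini-Hochberg over 12393 genes at 0.05. The procedure was tested on simulated data. Python 3.11.15 searched the promoters, and matplotlib 3.10.9 drew the figures.

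The phase I genes and all lists were chosen with earlier results of these data known. By rule, per-array values were for genes that passed with a difference of at least 0.5 and for the electron supply, epoxide hydrolase and aldehyde oxidase genes. They are given for the other genes that passed and some that did not as well. Alternatives were the mean of probe sets, probe set type, a filter on dim genes, quantile normalization, a variance trend, array weights, a replicate block and leaving out each array.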

Additional observations from a re-analysis of the deposited data

How the results depend on the processing

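Of the 12 phase I genes that passed, 7 did so under every alternative that could give a value: Ces2e, Fmo1, Cyp2j6, Fmo5, Cyb5b, Cyp2d13 and Cyp3a13. For the other 5, the report gives the values without each array, probe set type or normalization that ended the call. Counts of phase I genes stayed within 1.5 times of 4 higher and 8 lower, except that 8 were higher with a variance trend and 2 higher without TG replicate 1 or without TG replicate 3. Ces2a and Ephx1, just outside the threshold, passed among genes at or above the array median (adjusted p = 0.0197 and 0.0165) and with a variance trend (0.00221 and 0.00121). Cyp1a2, Ces1c, Cyp3a25 and Cyp2d22 passed with a variance trend only (adjusted p = 0.0120, 0.0266, 0.00838 and 0.0475). Leaving out each array gave 2 to 3 higher and 6 to 9 lower phase I genes, with a median difference from -0.02 to 0.02. Over all genes it gave 540 to 739 higher and 727 to 961 lower genes, against 846 and 1121, with the fewest in both directions without TG replicate 1; without TG replicate 3 it was 741 lower. With the replicate block 640 genes were higher and 865 lower, and of the phase I genes 3 and 7. The block ended the calls of Cyp2f2 (adjusted p = 0.0664) and Ces2g (0.0618) and, among other genes named, of Ahr (0.0923), Tiparp (0.0509) and Hmox1 (0.0637). The replicate numbers share no stated source. Same-numbered samples had correlations of -0.01, -0.01 and 0.10 between their deviations, and differently numbered samples from -0.07 to 0.07. With 3 arrays per genotype, such values cannot decide whether the numbers pair the samples. Without probe sets that match several transcripts 40 phase I genes could be tested, and the B cell marker Ighm had a difference of 0.14 (adjusted p = 0.408), against -1.80 with them. The cause was not tested. Signal near background for 13 genes, and near the top of the range for Cyp3a11 and Cyp2e1, limits what the arrays can show.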
